A study of Mus musculus with 3 samples.

Results

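The 9 genes described here, Fgf5, Otx2, Pou3f1, Dnmt3a, Dnmt3b, Lef1, Fgf15, Cldn6 and Zic2, are widely used markers of the primed or formative epiblast state, and they were taken by name as 9 of the 18193 genes that the platform annotation names on the array. They were chosen with earlier results of these data known. All probe sets paired with them were used, 17 of 34945 probe sets with 1 gene symbol. Expression was measured in undifferentiated R1 cells, an established mouse embryonic stem (ES) cell line, after 4 h with BMP4 at 20 ng/ml, after 4 h with the BMP antagonist noggin at 100 ng/ml, or without treatment. Each condition had 1 Affymetrix array, 3 arrays in all, so no value has a replicate error, no test was possible and every difference below is a description of these arrays. The labels name neither the culture medium nor any feeder cells.

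Naive ES cells resemble the epiblast before implantation, and primed cells resemble the epiblast after it. On the way from naive to primed, OTX2 and POU3F1 (also called OCT6) are switched on, the de novo DNA methyltransferases increase, FGF5 appears, and the naive factors are lost. BMP signals act through receptor-activated SMAD proteins, and in mouse ES cells they sustain self-renewal together with LIF, partly by way of the ID proteins. Noggin binds BMP ligands outside the cell and keeps them from their receptors.

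Values are log2 expression values from RMA, which corrects background, makes the array distributions alike and combines the probes of a probe set, so a difference of 1 is a 2-fold difference. A gene was represented by its probe set with the highest mean and was kept where its highest value lay above 3.44, the median of all values on the 3 arrays, called the floor below. This left 11594 genes. Of the 9 members 7 lay above the floor, and Fgf5 and Lef1 lay below it on every array. The 7 are those that the arrays measured above the middle of all values, and they do not stand for the whole set of 9. Of the 17 probe sets 13 lay above the floor, and all 13 did so on each of the 3 arrays.

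The arrays carried the transcripts that define ES cells. The 5 ES cell markers Pou5f1, Sox2, Nanog, Zfp42 and Esrrb were all above the floor, and their mean level was 11 with BMP4, 10.9 with noggin and 10.9 untreated. The BMP4 treatment was seen in its target genes. Id1 measured 11.54 with BMP4, 8.59 with noggin and 8.78 untreated. Id2 measured 8.90 with BMP4, 4.31 with noggin and 4.80 untreated. Id3 measured 9.16 with BMP4, 5.31 with noggin and 5.58 untreated. All 8 listed BMP targets were at least 1.2-fold higher with BMP4 than untreated, where 1.59% of all kept genes were. The noggin array differed less from untreated, with 5 of the 8 lower, 2 higher and 1 equal and a median difference of −0.10. Over all kept genes 36.1% were lower with noggin, 26.8% higher and 37% equal. At least 1.2-fold lower with noggin were 3 of the 8, where the background was 1.9%. The 24 probe sets for poly-A spikes, which are added to the RNA before labelling, were lower by a median of 0.63 with BMP4 and by 0.18 with noggin, each relative to untreated. The excess of the 3′ over the 5′ probe set of Tfrc, a sign of RNA or labelling quality, was 1.38 with BMP4, 1.88 with noggin and 1.51 untreated. The arrays lay closer together for Actb, at 0.21 with BMP4, 0.37 with noggin and 0.32 untreated. For Gapdh it was 0.09 with BMP4, 0.10 with noggin and 0.06 untreated. The part of these technical values in the differences below was not tested. Many deposited values are shared: 69.7% of probe sets with BMP4, 64.8% with noggin and 71.6% without treatment had a value that at least 1 other probe set of the same array also had. A difference of exactly 0.00 is therefore common here and is no measure of how alike the RNA was.

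Against the untreated array, the primed genes above the floor went in both directions with BMP4, and with noggin the members that differed by at least 1.2-fold were lower. By the brightest probe set of each gene, Zic2 was 1.42-fold higher with BMP4 and the other 6 kept members differed by less than 1.2-fold. The second probe sets of Dnmt3b and Pou3f1 were 1.29-fold and 1.25-fold lower with BMP4. With noggin, Fgf15 was 1.29-fold lower and Pou3f1 was 1.28-fold lower. No probe set of a member reached 1.5-fold with either treatment relative to untreated. The limit of 1.2-fold, 0.26 on the log2 scale, is a size and not a test.

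**Figure D1:**
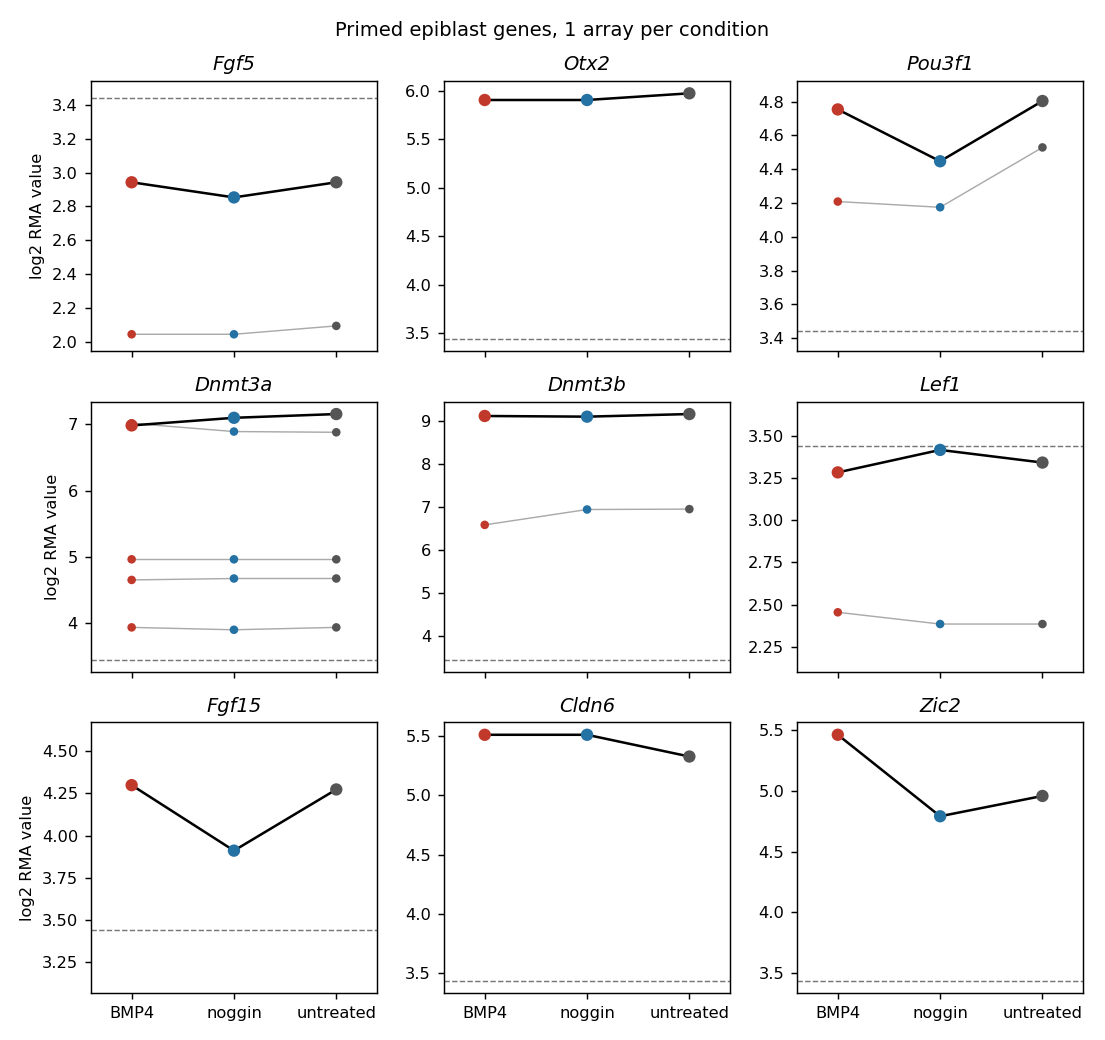
Log2 RMA value (vertical axis, scaled separately for each gene) of every probe set of the 9 genes on the BMP4, noggin and untreated arrays. Black lines join the values of the probe set with the highest mean, grey lines those of the others, and the dashed line is the floor of 3.44. Fgf5 and Lef1 lie below the floor on all 3 arrays, Zic2 is highest with BMP4, and Fgf15 and Pou3f1 are lowest with noggin.

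Among the transcription factors, Zic2 had the largest range over the arrays. It encodes a zinc finger factor of the epiblast and the early neural plate. Its single probe set measured 5.46 with BMP4, 4.79 with noggin and 4.96 untreated, so the BMP4 array was highest and the noggin array lowest. The difference was 0.50 for BMP4 minus untreated and −0.17 for noggin minus untreated, and BMP4 exceeded noggin by 0.67, a 1.59-fold difference. Among the 11594 genes, 36 including Zic2 itself were at least as much higher with BMP4, while the noggin difference was matched or exceeded downwards by 670 genes. As a yardstick from within these arrays, probe sets of one gene differed in their BMP4 minus untreated difference with an SD of 0.13, over 13666 probe sets of 5139 genes. This SD holds no variation between cultures or arrays that moves all probe sets of a gene together. It is therefore no measure of the error of a gene's difference. Zic2 has no second probe set that could show the same on other probes. Its untreated value was shared with 66 other probe sets on that array, and its BMP4 and noggin values with none.

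Zic5, a related zinc finger gene that lies next to Zic2 in the RefSeq annotation of assembly GRCm38.p6, had values in the same order. It measured 6.74 with BMP4, 6.50 with noggin and 6.60 untreated, which is a difference of 0.14 with BMP4 and −0.10 with noggin. These differences were smaller than those of Zic2 and below 1.2-fold. The arrays that placed highest and lowest were the same for both genes.

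Pou3f1 encodes a POU-domain factor of the epiblast and of Schwann cells, and its probe sets gave like differences with noggin and unlike ones with BMP4. The brighter probe set measured 4.75 with BMP4, 4.45 with noggin and 4.80 untreated. The second measured 4.21 with BMP4, 4.17 with noggin and 4.53 untreated. With noggin the differences were −0.36 on the first and −0.35 on the second, so both were 1.28-fold lower. With BMP4 they were −0.05 and −0.32, so the second probe set was lower on both treated arrays and the first on the noggin array alone by more than 1.2-fold. On the first probe set 87 genes including Pou3f1 were at least as much lower with noggin than untreated. Of its homologues, Pou3f2 measured 4.65 on all 3 arrays, and Pou3f3 and Pou3f4 were below the floor.

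Otx2, a homeobox factor that directs enhancer choice as cells become primed, differed little. It measured 5.91 with BMP4, 5.91 with noggin and 5.98 untreated, a difference of −0.07 for both treatments. Many genes differed as much: 29.7% of the 11594 genes had an absolute difference at least this large with BMP4, and 30.2% with noggin. The value on the treated arrays was the same to 6 decimals. With BMP4 12 other probe sets had that value, and with noggin 34 did, so it is a value that many probe sets have.

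Lef1, the TCF-family partner of beta-catenin, was not above the floor. Its brighter probe set measured 3.28 with BMP4, 3.42 with noggin and 3.34 untreated, the noggin value lying just under the floor. The second measured 2.45 with BMP4, 2.39 with noggin and 2.39 untreated. The 2 probe sets gave −0.06 and 0.07 for BMP4 minus untreated, opposite in sign. Of the 5 TCF and beta-catenin genes listed with it, the 4 that were named and above the floor included Tcf7l1, a repressor of the naive program and the TCF gene best known in ES cells, at 8.20 with BMP4, 8.23 with noggin and 8.23 untreated. None of the 4 passed 1.2-fold in any comparison, where 0.897% to 3.37% of all kept genes passed it in a given direction. Axin2, a feedback target of Wnt signalling, was the highest of the 4 with noggin, at a difference of 0.22.

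Of the FGF ligands, Fgf15 was lower with noggin and Fgf5 was below the floor. Fgf15, the mouse counterpart of human FGF19 and a ligand made by the epiblast and neural tissue, measured 4.30 with BMP4, 3.91 with noggin and 4.27 untreated. The noggin array stood apart, at −0.36 from the untreated array and with BMP4 exceeding it by 0.39, while BMP4 and untreated differed by 0.03. Among all kept genes 79 including Fgf15 were at least as much lower with noggin than untreated. Such counts are over kept genes of every level, whereas all values of Fgf15, Pou3f1 and Zic2 lay below 6.04, the 75th percentile of all values. The SD of the noggin minus untreated difference among probe sets of one gene was 0.11, which again holds no variation between cultures or arrays. Fgf15 has a single probe set, and 102 other probe sets had its value on the BMP4 array. Fgf5, the classical marker of the epiblast after implantation, measured 2.94 with BMP4, 2.85 with noggin and 2.94 untreated on its brighter probe set, and 2.04 with BMP4, 2.04 with noggin and 2.09 untreated on the other. All 6 values lie below the floor, and differences between values in that range are not read here.

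Of 9 FGF pathway genes listed beside these ligands 8 were above the floor, and with BMP4 6 of the 8 were higher, 1 was lower and 1 was equal, where 24.8% of all kept genes were higher, 35.6% lower and 39.6% equal. Their median difference was 0.15, and 2 were at least 1.2-fold higher, where the background was 1.59%. The receptor kinase inhibitor gene Spry4 measured 7.93 with BMP4 and 7.45 untreated, and the ERK phosphatase gene Dusp6 measured 7.63 with BMP4 and 7.21 untreated. The 1 gene lower with BMP4 was Etv5, at 9.48 with BMP4, 9.68 with noggin and 9.65 untreated. Spry2, of the same family as Spry4, measured 8.08 on all 3 arrays. Dusp6 was lower with noggin by 0.24, and it exceeded its noggin value by 0.66 with BMP4. Fgf4, the main autocrine FGF of ES cells, was higher by 0.19 with BMP4 and by 0.10 with noggin. The part of the FGF pathway in the values of Fgf15 or Zic2 was not tested.

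The de novo DNA methyltransferase genes, which set up methylation as the epiblast leaves the naive state, were slightly lower on both treated arrays by their brightest probe sets, and their probe sets disagreed. Dnmt3b measured 9.12 with BMP4, 9.10 with noggin and 9.16 untreated, differences of −0.04 and −0.06. Its second probe set measured 6.58 with BMP4, 6.94 with noggin and 6.95 untreated, which makes the BMP4 value 1.29-fold lower than the untreated one. The annotation pairs both probe sets with the same transcript accession, and the fainter shows the BMP4 array apart while the brighter does not.

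Dnmt3a has 5 probe sets, all paired with one accession. The brightest measured 6.99 with BMP4, 7.10 with noggin and 7.16 untreated, a difference of −0.17 with BMP4. The next in brightness measured 7.02 with BMP4, 6.89 with noggin and 6.88 untreated, a difference of 0.14, so the direction with BMP4 depends on the probe set. The other 3 probe sets differed from untreated by 0.04 or less on either treated array. The mean over all 5 gave −0.01 with BMP4.

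Of the other genes of DNA methylation, 5 of 6 were above the floor and all 5 were higher with BMP4, where 24.8% of all kept genes were higher. At least 1.2-fold higher were 2 of the 5, where the background was 1.59%. Uhrf1, which brings the maintenance methyltransferase to replicated DNA, measured 9.45 with BMP4 and 9.15 untreated, and the 5-methylcytosine oxidase gene Tet1 measured 9.84 with BMP4 and 9.56 untreated, and these are the 2. Dnmt3l, the catalytically inactive partner of DNMT3A and DNMT3B, was higher by 0.07 with BMP4 and lower with noggin, at −0.13. Dnmt1 measured 9.03 on both treated arrays and 9.02 on the untreated one. With noggin none of the 5 passed 1.2-fold, where the background was 0.897% higher and 1.9% lower.

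Cldn6, a tight-junction claudin of the epiblast and other embryonic epithelia, was the member that was higher on both treated arrays. It measured 5.51 with BMP4, 5.51 with noggin and 5.32 untreated, a 1.14-fold difference for either treatment. Here the untreated array stood apart and the treated arrays had the same value, shared with 18 other probe sets in the BMP4 column and 38 in the noggin one. At least as large an absolute difference was found in 8.38% of the kept genes with BMP4 and in 7.55% with noggin. Of the related claudins, Cldn4 measured 4.88 with BMP4, 4.65 with noggin and 4.65 untreated, Cldn7 measured 5.74 with BMP4, 5.68 with noggin and 5.79 untreated, and Cldn3 differed by 0.01 or less.

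Promoter sequences are given for Cldn6 and Dnmt3a, the kept members with the largest ranges among the 6 members that have windows in the RefSeq promoter set (assembly GRCm38.p6), and for Dnmt3b, whose second probe set was lower with BMP4. They were chosen after the values were seen, and Zic2, Fgf15 and Pou3f1 were not searched. Each is 300 bases, 250 before to 50 after an annotated start, on the plus strand, and of Dnmt3a the window furthest downstream is shown. Capitals mark matches to the searched motifs.
Cldn6, chr17:23679115-23679414: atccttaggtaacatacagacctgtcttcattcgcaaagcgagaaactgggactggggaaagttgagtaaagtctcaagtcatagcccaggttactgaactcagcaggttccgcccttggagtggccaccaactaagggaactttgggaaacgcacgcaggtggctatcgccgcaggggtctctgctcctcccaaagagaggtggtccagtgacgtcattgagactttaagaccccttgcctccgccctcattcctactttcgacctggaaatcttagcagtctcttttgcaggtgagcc
Dnmt3a, chr12:3891494-3891793: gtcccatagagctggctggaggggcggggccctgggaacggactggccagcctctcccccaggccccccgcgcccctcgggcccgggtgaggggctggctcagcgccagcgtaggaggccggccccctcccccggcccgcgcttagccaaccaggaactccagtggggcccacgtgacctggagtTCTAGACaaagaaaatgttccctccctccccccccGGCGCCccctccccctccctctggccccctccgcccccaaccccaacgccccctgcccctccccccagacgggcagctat
Dnmt3b, chr2:153649199-153649498: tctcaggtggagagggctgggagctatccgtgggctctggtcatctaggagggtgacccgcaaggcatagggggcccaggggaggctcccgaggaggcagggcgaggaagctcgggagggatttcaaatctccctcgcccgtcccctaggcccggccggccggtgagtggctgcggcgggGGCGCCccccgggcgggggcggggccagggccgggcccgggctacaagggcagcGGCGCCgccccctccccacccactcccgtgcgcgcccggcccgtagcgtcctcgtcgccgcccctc

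The motifs searched, on both strands, were GGCGCC of the BMP-activated SMADs, GTCTAGA of the palindromic SMAD box, the E-box CATATG and the further E-box CAGCTG, bound by the partners of ID proteins, the TCF and LEF motif CTTTGAT, the OTX motif TAATCC, the letters ATGCAAA of the POU octamer, and the TATA box TATAAA. The SMAD motif GGCGCC stood in the Dnmt3b window 70 and 16 bases before the start, in the Dnmt3a window 30 bases before it, and in none of the Cldn6 window. It is held by 11.9% of the 32851 windows in the RefSeq promoter set. The windows differ in composition, with 52.3% G or C in that of Cldn6, 74% in that of Dnmt3a and 76% in that of Dnmt3b, and GGCGCC consists of G and C alone. The downstream Dnmt3a window also holds the letters of the SMAD box on its minus strand, which 2.19% of windows hold. Over the 14 windows of the 6 matched members, several of which overlap, GGCGCC was in 6, TATAAA in 3, and the SMAD box, the E-box CAGCTG and the OTX motif in 1 each. TATAAA is in 13.6% of all windows, CAGCTG in 16.3% and TAATCC in 7.06%. These matches describe the letters of the windows and no binding was measured.

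Counted together for BMP4 minus untreated, 4 of the 7 kept members were lower and 3 were higher, with a median difference of −0.04 and a span from −0.17 in Dnmt3a to 0.50 in Zic2. Their mean, 0.05, had the opposite sign to the median. Over all 11594 genes 35.6% were lower, 24.8% were higher and 39.6% were equal, and their median was 0.00. At the limit of 1.2-fold 1 member was higher, Zic2, where the background was 1.59%, and 0 were lower, where it was 2.25%. With 1 gene of 7 the list cannot be set apart from this background. At 1.5-fold 0 of 7 were higher or lower, where 0.224% of genes were higher and 0.0518% lower, and likewise at 2-fold, where the background was 0.0949% and 0.00863%. By probe set, 9 of the 17 were lower with BMP4, 5 higher and 3 equal. Of the 13 above the floor 7 were lower, 4 higher and 2 equal. Probe sets of one gene are not independent, and the shares above are of kept genes and not of probe sets.

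For noggin minus untreated, 6 of the 7 kept members were lower and 1, Cldn6, was higher, against 36.1% lower and 26.8% higher and 37% equal over all genes. The median was −0.07, and the span ran from −0.36 in Fgf15 to 0.18 in Cldn6. At 1.2-fold 2 members were lower, Fgf15 and Pou3f1, where the background was 1.9%, and 0 were higher, where it was 0.897%. The members and the limit were chosen with earlier results of these data known and no test was run. The count of 2 of 7 is therefore not read as an excess over the background. At 1.5-fold 0 of 7 were lower or higher, where 0.069% of genes were lower and 0.00863% higher, and at 2-fold no gene of the 11594 was. The remaining lower members, Zic2, Otx2, Dnmt3b and Dnmt3a, lay between −0.17 and −0.06. By probe set 11 of the 17 were lower with noggin, 3 higher and 3 equal. Of the 13 above the floor 9 were lower, 2 higher and 2 equal. Here too the probe sets of one gene are not independent, and the shares above are of kept genes. The comparisons of either treatment share the untreated array, so an unusual untreated value would shift a member the same way in both.

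BMP4 set directly against noggin does not use the untreated array. Of the 7 kept members 4 were higher with BMP4, 1 was lower and 2, Otx2 and Cldn6, were equal, where 33.1% of all genes were higher, 34.1% lower and 32.9% equal. At 1.2-fold 3 members were higher with BMP4, Zic2 at 0.67, Fgf15 at 0.39 and Pou3f1 at 0.31, where the background was 3.37%, and 0 were lower, where it was 3.26%. With members and limit chosen after earlier results were known and no test run, 3 of 7 is not read as an excess. Of the 7, Zic2 alone passed 1.5-fold here, a size that 0.38% of genes reached upwards and 0.138% downwards. At 2-fold 0 of 7 were higher or lower, where the background was 0.112% higher and 0.00863% lower. The second probe set of Pou3f1 gave 0.03, and with the mean over its probe sets Pou3f1 was at 0.17, below the limit, which left 2 members. The second probe set of Dnmt3b gave −0.36.

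**Figure D2:**
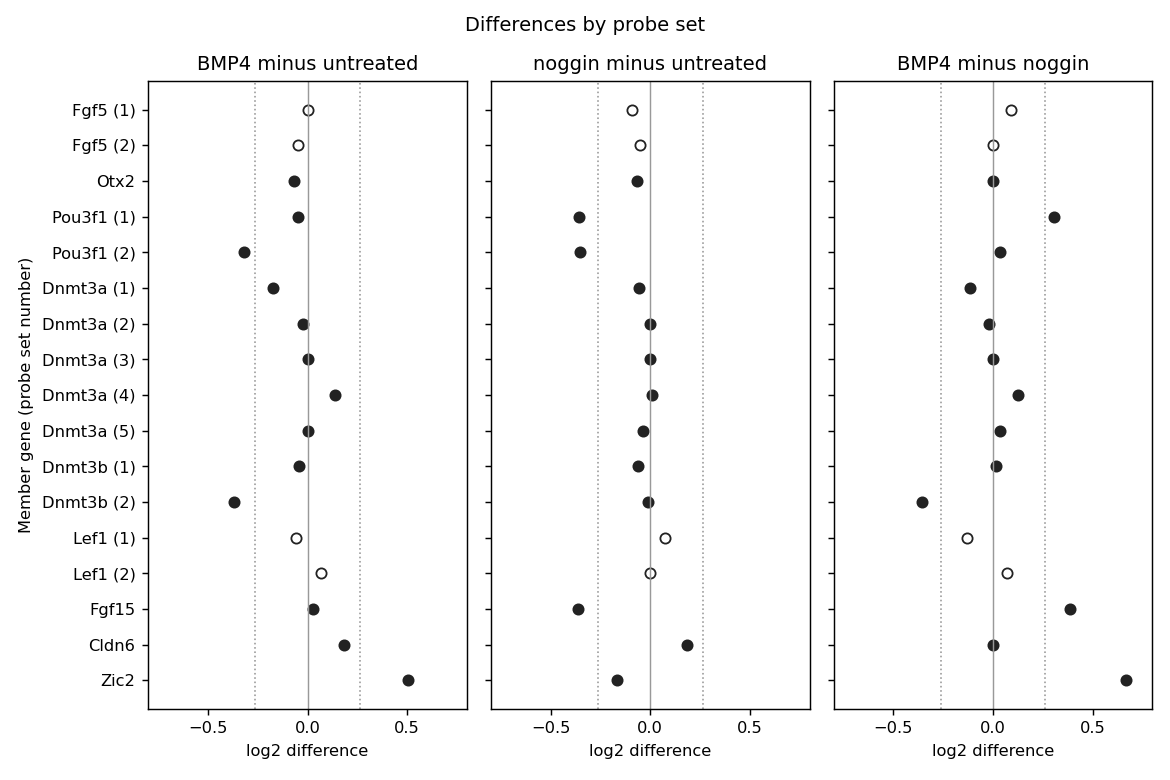
Log2 difference (horizontal axis) of each of the 17 probe sets in the 3 comparisons, where number 1 of a gene is its brightest. Filled points are above the floor, open points below it on all arrays, and dotted lines mark 1.2-fold. Zic2 lies beyond the line at 0.50 with BMP4, both Pou3f1 probe sets and Fgf15 lie beyond it with noggin, and the probe sets of Dnmt3a fall on both sides of 0 with BMP4.

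**Figure D3:**
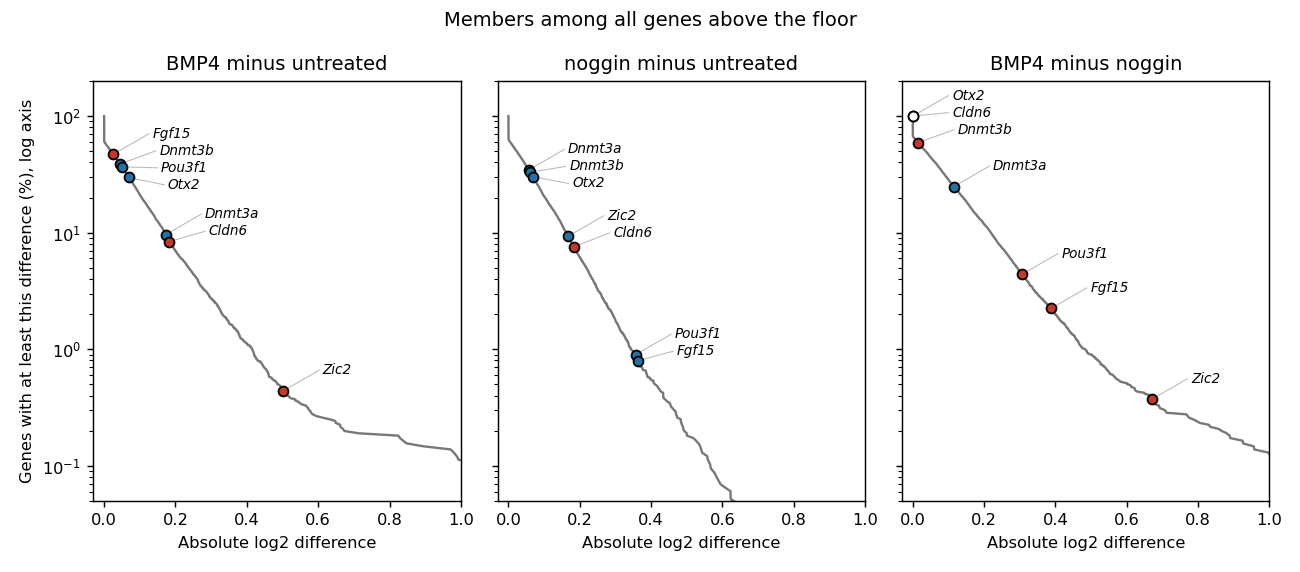
Share of the 11594 kept genes (vertical axis, percent, log scale) whose absolute log2 difference is at least the value on the horizontal axis, with the 7 kept members marked. Red marks a member with the higher value in the first-named group, blue one with the lower, white one with equal values. Zic2 sits where 0.44% of genes differ as much with BMP4, Pou3f1 where 0.897% and Fgf15 where 0.794% do with noggin, and the other members sit where more than 7% do in those comparisons.

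The naive and the other primed genes were set beside the members. Of 15 further formative and primed epiblast genes, 11 were above the floor, and none passed 1.2-fold in any comparison. Over all kept genes 0.897% to 3.37% passed it in a given direction of a comparison. With 11 genes, a count of 0 does not set the list apart from these shares. The median difference of the list with BMP4 was 0.00, from Nodal at −0.20 to Zic5 at 0.14. With BMP4 5 were higher and 3 lower, where 24.8% of all kept genes were higher and 35.6% lower. With noggin 3 were higher and 4 lower, where 26.8% of all kept genes were higher and 36.1% lower. The list median was again 0.00, and the neural and epiblast factor gene Sox11 was lowest at −0.26. Utf1, a chromatin factor of pluripotent cells, was within 0.06 of untreated on both arrays.

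All 17 naive pluripotency genes were above the floor. Their median difference with BMP4 was 0.01. Of the 17, 9 were higher and 7 lower with BMP4, where 24.8% of all kept genes were higher and 35.6% lower. At least 1.2-fold lower were 2 of the 17, where the background was 2.25%. Prdm14, a repressor of FGF signalling and de novo methylation in naive cells, measured 6.84 with BMP4 and 7.12 untreated, and the nuclear receptor gene Nr5a2 measured 8.37 with BMP4 and 8.64 untreated. With noggin 8 were higher and 8 lower, where 26.8% of all kept genes were higher and 36.1% lower. The list median was 0.00, and Gbx2 was lowest at −0.20. None of the 17 passed 1.2-fold with noggin, where the background was 0.897% higher and 1.9% lower. Zfp42, the marker also known as Rex1, measured 11.94 on both treated arrays and 11.97 untreated. The median of all genes was 0.00 in both comparisons, and those of the kept primed members were −0.04 with BMP4 and −0.07 with noggin.

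**Figure D4:**
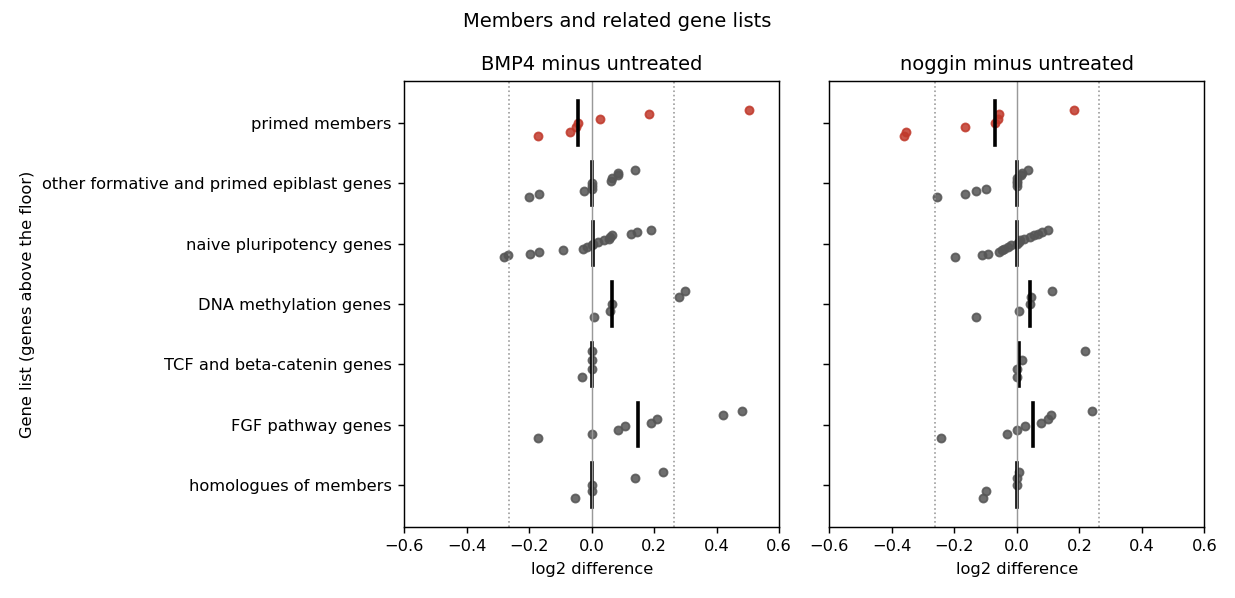
Log2 difference (horizontal axis) of the genes above the floor in each list, for BMP4 minus untreated and noggin minus untreated. Each point is 1 gene, the thick bar is the median of the list, and dotted lines mark 1.2-fold. The 7 kept primed members, in red, have medians of −0.04 and −0.07, the naive genes lie around 0.00, and the FGF pathway genes have a median of 0.15 with BMP4.

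Several members are also expressed outside the epiblast, so markers of other cell types were read on the same arrays. In a bulk sample, fewer cells of a type and less RNA per cell cannot be told apart. Of 5 neuroectoderm markers 3 were above the floor, with a mean level of 4.71 with BMP4, 4.90 with noggin and 4.96 untreated. The defining gene Sox1 was below the floor on all 3 arrays. Ncam1 was lower by 0.42 with BMP4 and by 0.35 with noggin. Pax6 was lower by 0.37 with BMP4, where its 3.48 lay just above the floor, and equal with noggin. Nes, the brightest of the kept markers, was higher by 0.03 with BMP4 and by 0.17 with noggin. Of 8 endoderm markers 5 were above the floor, at a mean of 4.21 with BMP4, 3.91 with noggin and 3.89 untreated. Sox7 was 0.99 and Gata6 0.52 higher with BMP4, whereas Gata4, Foxa2 and Afp were below the floor. With noggin Gata6 was 0.15 higher and Sox17 0.15 lower. Of 6 mesoderm markers 4 were above it, at a mean of 4.31 with BMP4, 4.13 with noggin and 4.16 untreated. Eomes was 0.46 higher with BMP4 and 0.11 lower with noggin. Mixl1 measured 3.67 with BMP4 and 3.44, the value of the floor, with noggin and untreated. Mixl1 was kept for its BMP4 value alone, so its difference is not read, and it enters the mesoderm means above. Kdr was 0.12 lower with BMP4 and Mesp1 was equal. Of 7 fibroblast markers 5 were above the floor, at a mean of 5.29 with BMP4, 5.52 with noggin and 5.49 untreated, while Col1a1 and Col3a1 were below it. S100a4 was lower by 0.55 and Col1a2 by 0.17 with BMP4, and Thy1 and Vim were within 0.02 of untreated with BMP4. With noggin S100a4 was lower by 0.31, Thy1 was higher by 0.18 and Vim by 0.02, and Col1a2 was equal. Postn measured 3.00 with BMP4 and 3.32 untreated, both below the floor, so that difference is not read. Postn was kept for its noggin value of 3.55 alone, and it enters the means above. The part of such cells in the values of Zic2, Fgf15 or Pou3f1 was not tested.

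The genes whose pattern lay nearest to those of Zic2 and Fgf15, the kept members with the largest ranges, were found by the Euclidean distance between the pairs of differences from the untreated array, over 3 arrays. For Zic2 they were Rbm25, an RNA-binding splicing regulator, at a distance of 0.04, the homeobox gene Prrx2 and the T-box gene Eomes at 0.07 each. Eomes, which drives mesoderm and endoderm formation, measured 6.38 with BMP4, 5.81 with noggin and 5.92 untreated. Rbm25 has 6 probe sets and Eomes 2, of which the brightest was used. For Fgf15 they were Dennd6b at 0.01, Fam229b at 0.02 and the long non-coding gene Mir9-3hg at 0.03, which measured 4.33 with BMP4, 3.97 with noggin and 4.33 untreated. A pattern over 3 arrays holds 2 differences, so many unrelated genes can lie near any member.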

How the data were processed

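The values are on the log2 scale, 1 per probe set and array, as deposited by the authors, who used RMA per the submitters' processing notes (version and settings: not given in the sources used here). Quantile normalization within RMA gives the arrays like distributions, so a change in total RNA could not be seen. The table holds 45101 probe sets, of which 64 are controls, and the platform annotation pairs 34945 with 1 gene symbol, 932 with several and 9160 with none. Entrez identifiers of 34741 matched a RefSeq gene table (GRCm38.p6), and 0 member symbols changed. A gene was kept if its brightest probe set exceeded 3.44 on any array, which left 63.7% of genes.

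Differences of log2 values were computed in Python 3.11.15 with pandas 2.3.3, and the computation was tested on simulated data. With 1 array per condition the number of arrays limits the precision, and no p-value, SD between samples or standard error is given. The members, the lists and the 1.2-fold limit were chosen with earlier results of these data known. All 9 members are named; of each list, at most the 2 lowest and 2 highest in a comparison were to be named, and Pou3f2, Pou3f3, Pou3f4, Cldn3, Cldn7, Tcf7l1, Fgf4, Spry2, Utf1, Dnmt1, Dnmt3l and Zfp42 were added, where outside that rule, after their values were seen. Promoter windows were to be printed for the members with the largest ranges, Zic2 and Fgf15; these and Pou3f1 were not matched in the promoter table, so they were not searched for motifs, and Cldn6, Dnmt3a and Dnmt3b are shown. Alternatives covered the probe set rule, the floor, centring, loess with a span of 0.3, the size limit and the summary.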

Additional observations from a re-analysis of the deposited data

How the results depend on the processing

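Over the 9 alternatives, the median difference of the kept members ran from −0.17 to −0.06 for noggin minus untreated. For BMP4 minus untreated it ran from −0.11 to 0.05, and it was above 0 with plain-suffix probe sets alone, at 0.03 over 5 members, and as a mean. For BMP4 minus noggin it ran from −0.05, with the floor at the 75th percentile, to 0.31 with plain-suffix probe sets alone, and the mean over members was 0.18. Of counts at 1.2-fold, those with probe sets as units (13 above the floor) were 2 lower with BMP4 than untreated, in place of 0, 1 lower with BMP4 than noggin, in place of 0, and 3 lower with noggin, in place of 2. Averaging the probe sets of each gene, 2 were higher with BMP4 than noggin in place of 3, because Pou3f1 fell below the limit, at 0.17 in place of 0.31. With the floor at the 75th percentile, 2 members were left and the counts were 0 higher with BMP4 than untreated, 0 lower with noggin and 0 higher with BMP4 than noggin, in place of 1, 2 and 3. At 1.5-fold these counts were 0, 0 and 1, and at 2-fold 0, 0 and 0; fewer members pass a higher limit by construction. Among single members, the mean over all probe sets moved BMP4 minus untreated to −0.18 in Pou3f1, −0.01 in Dnmt3a and −0.21 in Dnmt3b, and BMP4 minus noggin to −0.17 in Dnmt3b; the cause was not tested. No difference past 1.2-fold changed sign. Centring and loess correction moved the median of all genes by 0.0023 or less. No paired analysis was possible because each condition has 1 array. Zic2, Fgf15, Otx2 and Cldn6 rest on 1 probe set each, and Fgf5 and Lef1 lie below the floor, where signal over background limits any reading.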
